A study of Mus musculus with 23 samples.

Results

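The 10 transcription factors followed here belong to the rhombic lip, to unipolar brush cells and to related cerebellar glutamatergic lineages, and they were measured across mouse medulloblastoma models: *Otx2*, *Lmx1a*, *Eomes*, *Barhl1*, *Barhl2*, *Pax6*, *Meis1*, *Tbr1*, *Lhx2* and *Lhx9*. They were taken by name, with every probe set annotated to one of them alone, which gave 10 of the 18194 genes measured and 21 of the 34958 probe sets that carry a single gene. RNA from 23 samples had been measured on Affymetrix mouse gene expression arrays, and values are RMA values on a log2 scale, so that 1 unit is a 2-fold difference. A gene is represented by its probe set with the highest mean over all arrays, and its other probe sets are described beside it.

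The samples were 3 CRISPR-Ptch1 tumours, 4 Ptc+/- tumours, 5 MERP tumours, 4 GTML tumours, 3 preparations of granule neuron precursors (GNPs) and 4 normal adult cerebella. The labels give CD1 as the strain of all samples, while the study's methods name C57BL/6N mice for transfection after birth, and the labels give no age for tumours or adult tissue. CRISPR-Ptch1 tumours followed somatic delivery of plasmids for Cas9 and a guide against *Ptch1*, the inhibitory SHH receptor. In 2 of them (EP) the plasmids had been electroporated in utero into the embryonic cerebellum of wild-type animals. In 1 (TF) they had been transfected after birth, into *Trp53*-/- mice by the study's account, so that the route, the stage, the *Trp53* genotype and possibly the strain cannot be told apart in this one tumour. Ptc+/- tumours arose in mice with 1 disrupted germline *Ptch1* allele. MERP tumours arose after conditional deletion of *Ptch1* by an inducible Cre driven by *Atoh1*, a gene of the granule lineage. GTML tumours arose sporadically with *Mycn* overexpression, in a transgenic system driven by the *Glt1* promoter. GNPs were isolated between postnatal days 4 and 7. The labels do not say that samples of a group came from separate litters, so the p-values speak of the variation among these arrays alone, which may be technical.

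The rhombic lip is the dorsal germinal zone of the hindbrain that borders the roof plate. In the cerebellum it gives rise to glutamatergic neurons in sequence: neurons of the cerebellar nuclei, then GNPs, which divide under SHH in the external granular layer, and unipolar brush cells, excitatory interneurons of the granular layer. OTX2 and LMX1A mark the lip and its roof plate border, EOMES (TBR2) marks unipolar brush cells and their progenitors, BARHL1, MEIS1 and PAX6 belong to the granule lineage, and TBR1, LHX2 and LHX9 are found in neurons of the cerebellar nuclei.

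*Otx2*, *Barhl1* and *Meis1* are among the genes that set GTML tumours apart, with *Otx2* highest and *Barhl1* and *Meis1* lowest there. *Eomes* was also lowest there, but its sequence is not shown. The 250 bases before the most upstream RefSeq start of *Otx2*, *Barhl1* and *Meis1* are shown (GRCm38.p6). They lie at chr14:48667645-48667894 for *Otx2*, chr2:28916669-28916918 for *Barhl1* and chr11:19018970-19019219 for *Meis1*, each on the minus strand and written 5′ to 3′ along the gene. Capitals mark matches to any of 5 motifs searched on both strands. The OTX core was searched as TAATCC. The homeodomain core was searched as TAATTA. The E box, the class of site bound by ATOH1, was searched as CAGCTG. The MEIS core was searched as TGACAG, and the GLI core as GACCACCCA.
Otx2: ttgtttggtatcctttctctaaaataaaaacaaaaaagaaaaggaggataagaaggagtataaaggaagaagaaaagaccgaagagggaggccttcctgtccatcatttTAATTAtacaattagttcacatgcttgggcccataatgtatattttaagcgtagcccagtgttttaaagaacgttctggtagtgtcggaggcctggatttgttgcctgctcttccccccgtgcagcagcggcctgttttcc
Barhl1: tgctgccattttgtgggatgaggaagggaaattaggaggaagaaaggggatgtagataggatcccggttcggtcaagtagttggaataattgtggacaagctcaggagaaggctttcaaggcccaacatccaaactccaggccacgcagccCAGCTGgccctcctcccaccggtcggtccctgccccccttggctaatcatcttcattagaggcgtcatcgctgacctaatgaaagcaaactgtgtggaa
Meis1: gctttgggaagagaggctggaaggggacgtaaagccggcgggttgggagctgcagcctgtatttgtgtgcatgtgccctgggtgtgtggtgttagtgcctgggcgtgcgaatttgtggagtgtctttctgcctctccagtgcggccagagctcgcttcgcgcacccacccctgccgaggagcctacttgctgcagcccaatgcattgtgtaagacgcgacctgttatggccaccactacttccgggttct

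The *Otx2* window held 1 homeodomain core, which 4.84% of all 32851 windows of this length hold, beginning 141 bases before the start. The *Barhl1* window held 1 E box at 99 bases before the start, a motif present in 13% of windows. The *Meis1* window held none of the 5 motifs. A second, more downstream *Barhl1* start had 1 E box and 1 OTX core in its window, and a downstream *Otx2* start had 3 homeodomain cores and 1 OTX core. OTX cores occur in 6.25% of windows. No window of the 10 genes held the GLI core, which 0.225% of all windows hold. The MEIS core, present in 15.9% of windows, was found before a start of *Lhx9*, *Pax6* and *Tbr1*. No motif overlapped another in the windows shown.

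The arrays had similar distributions, with medians over all probe sets between 6.0 and 6.2 and lower quartiles between 4.40 and 4.61. Values in or below the range of the lower quartiles are called near background here, and a fold against such a value is poorly fixed. *Ptch1* itself was at 12.75 to 13.24 in CRISPR-Ptch1 and MERP tumours, 11.50 to 12.26 in Ptc+/- tumours and 11.67 to 12.04 in GNPs. Whether its probe set covers the disrupted sequence is not given in the sources used here, so it does not check the labels. *Gli1*, a direct SHH target, was at 8.91 to 10.94 in GNPs and all *Ptch1* models, 5.96 to 6.22 in adult cerebellum and 4.22 to 4.65 in GTML tumours. The *Mycn* probe set was at 7.15 to 8.39 in GTML tumours, 6.57 to 7.13 in adult cerebellum and 11.67 to 12.57 in GNPs and all *Ptch1* models. Whether it reads the transgene is not given in the sources used here. Markers of other cells differed between tumours. All CRISPR-Ptch1 tumours carried more mature granule neuron markers (mean of 6 genes 9.18 and 10.70 in EP tumours and 7.90 in the TF tumour) and Purkinje cell markers (mean of 4 genes 9.18, 10.86 and 8.39) than Ptc+/- and MERP tumours (5.93 to 6.97 and 4.68 to 5.43). The mean of 5 microglia markers was 9.29 and 8.96 in EP tumours, 7.99 in the TF tumour and 6.34 to 7.64 in Ptc+/- and MERP tumours. The mean of 6 choroid plexus markers was 9.41 to 10.26 in GNPs, 6.15 to 6.42 in adult cerebellum and 4.53 to 8.34 in tumours. Fewer cells of a type and less RNA per cell cannot be told apart in such bulk samples.

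Of the 150 tests (10 genes in each of 15 comparisons between 6 groups, the EP and TF tumours fitted together), 76 passed an adjusted p of 0.05 in limma, 43 higher and 33 lower in the first-named group. Against adult cerebellum, 6 of the 10 genes passed in CRISPR-Ptch1 tumours (47.5% of all genes did), 7 in Ptc+/- tumours (53.2%), 6 in MERP tumours (55.7%), 8 in GTML tumours (55.3%) and 6 in GNPs (50.1%). Against GNPs, 3 genes passed in CRISPR-Ptch1 tumours (13.7% of all genes), 3 in Ptc+/- tumours (39.3%), 3 in MERP tumours (19.2%) and 7 in GTML tumours (41.8%). GTML tumours differed in 7 genes from CRISPR-Ptch1 tumours (36.8% of all genes), in 7 from Ptc+/- tumours (43.6%) and in 7 from MERP tumours (39.2%). Between the *Ptch1* models, 2 genes passed for CRISPR-Ptch1 against Ptc+/- (36.8%), 3 for CRISPR-Ptch1 against MERP (13.3%) and 1 for MERP against Ptc+/- (32.0%). Comparisons that share a group share its samples and are not independent of each other.

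**Figure D1:**
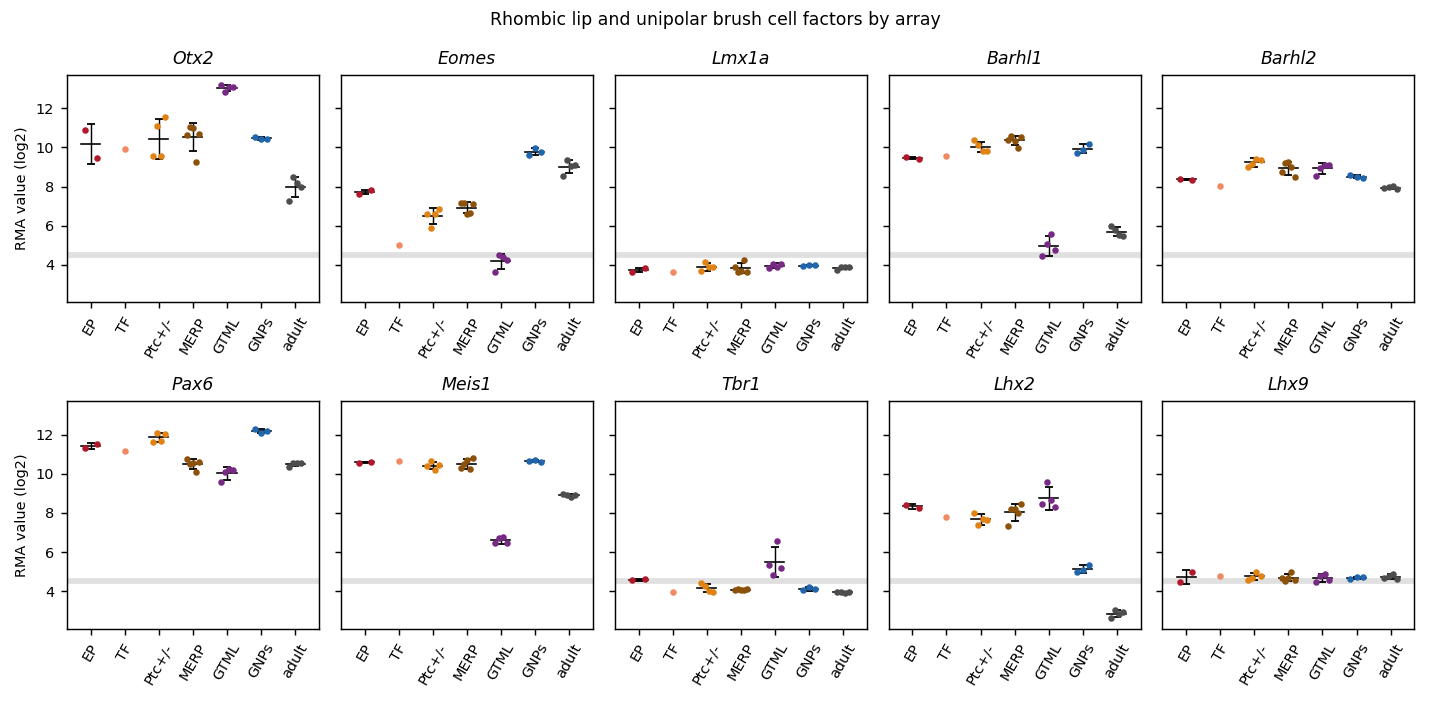
RMA value (log2, vertical axis) of each gene on all 23 arrays, by group (horizontal axis); points are arrays, bars the mean and SD of groups with over 1 array, and the grey band the range of the arrays' lower quartiles (4.40 to 4.61). *Otx2* was highest and *Barhl1*, *Eomes* and *Meis1* lowest in GTML tumours, *Lhx2* was lowest in adult cerebellum, and *Lmx1a* and *Lhx9* lay near the grey band in all groups.

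**Figure D2:**
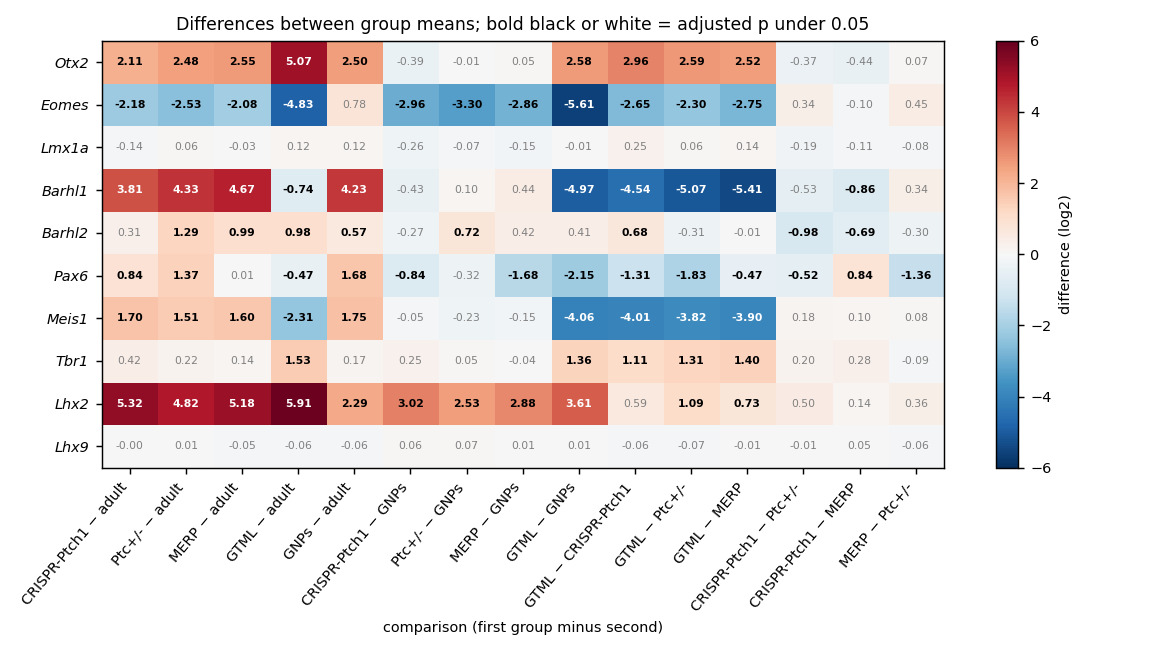
Difference between group means (log2; first-named group minus second) of the 10 genes (rows) in the 15 comparisons (columns), red where higher and blue where lower; grey figures missed an adjusted p of 0.05. The 4 columns that set GTML tumours against GNPs or a *Ptch1* model share gains of *Otx2* and *Tbr1* and losses of *Eomes*, *Barhl1*, *Meis1* and *Pax6*.

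*Otx2*, a homeodomain factor of the rhombic lip that is also made in choroid plexus, was highest in GTML tumours. Its values were 13.19, 12.82, 13.09 and 13.08 in GTML tumours. They were 10.91 and 9.44 in the EP tumours and 9.90 in the TF tumour, and 9.58, 11.11, 9.59 and 11.54 in Ptc+/- tumours. No array of another group reached the lowest GTML value. MERP tumours were at 10.63, 11.04, 10.98, 9.27 and 10.70, with 1 tumour below the rest. GNPs held a narrow range of 10.42 to 10.55, and adult cerebellum was lowest at 7.25, 8.49, 8.19 and 7.96.

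*Otx2* was therefore 2.52 ± 0.40 (log2 difference ± SE, 4 against 5 arrays) higher in GTML than in MERP tumours, a 5.75-fold difference (limma adjusted p = 3.25e-05), and 33.6-fold higher than in adult cerebellum (adjusted p = 1.27e-09). CRISPR-Ptch1, Ptc+/- and MERP tumours and GNPs were 4.32- to 5.85-fold above adult cerebellum, all past the threshold. These 4 groups were neighbours in the order of means (10.08 to 10.52) and none differed from the next. The 95% intervals of the differences from GNPs reached from -1.40 to 0.63 for CRISPR-Ptch1, from -0.97 to 0.94 for Ptc+/- and from -0.86 to 0.96 for MERP tumours.

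Ptc+/- tumours split in *Otx2*, with 2 tumours above 11 and 2 below 9.6. Its relative *Otx1*, a gene of the OTX list, ran the other way in the same 4 tumours, at 5.68 and 5.15 where *Otx2* was 11.11 and 11.54, and at 11.14 and 10.48 where *Otx2* was 9.58 and 9.59. In MERP tumours the lowest *Otx2* value, 9.27, came with the highest *Otx1* value, 9.54. EP tumours had 10.11 and 10.39 of *Otx1* beside 10.91 and 9.44 of *Otx2*, and GTML tumours had 5.13 to 5.66. Other tumours did not follow the inverse order: the TF tumour had 6.82 of *Otx1* beside 9.90 of *Otx2*, and the lowest *Otx1* value of MERP tumours, 6.60, came with 10.70 of *Otx2*. The mean of the choroid plexus markers was 4.90, 8.04, 7.50 and 6.23 in Ptc+/- tumours 1 to 4. It was 7.11 in the MERP tumour with the lowest *Otx2*, 9.41 to 10.26 in GNPs and 6.15 to 6.42 in adult cerebellum. The part of choroid plexus cells in the *Otx2* levels of these tumours and of GNPs was not tested.

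*Lmx1a*, a LIM homeodomain factor of the roof plate and upper rhombic lip, had 1 probe set and lay near background on all arrays, from 3.63 to 4.24. It passed in none of 15 comparisons, the largest difference being -0.26 on the log2 scale, for CRISPR-Ptch1 tumours against GNPs. Values this low cannot show whether the gene was off or below what the probe set reads.

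*Eomes*, the T-box gene of unipolar brush cells, was high in GNPs and adult cerebellum and lower in the tumours. GNPs were at 9.62, 9.98 and 9.77, and adult cerebellum at 8.56, 9.38, 9.03 and 9.09. The EP tumours held 7.64 and 7.82, and the TF tumour only 5.03. Ptc+/- tumours were at 6.59, 5.89, 6.61 and 6.86 and MERP tumours at 7.15, 7.14, 6.59, 6.66 and 7.12. All 4 GTML tumours were near background, at 3.62, 4.51, 4.38 and 4.24, but at 5.185 to 6.135 by the dimmer probe set 1426001_at. Every tumour lay below every adult and GNP sample.

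Against adult cerebellum *Eomes* was 4.55-fold lower in CRISPR-Ptch1, 5.77-fold lower in Ptc+/- and 4.24-fold lower in MERP tumours, with limma adjusted p = 0.000253, 1.44e-05 and 7.44e-05. Against GNPs it was 7.78-, 9.88- and 7.25-fold lower in the same models. Without the TF tumour the log2 differences of CRISPR-Ptch1 tumours shrank from -2.18 to -1.28 against adult cerebellum and from -2.96 to -2.06 against GNPs (adjusted p = 0.000499 and 2.55e-05). In GTML tumours it was lower than in each *Ptch1* model (log2 differences -2.75 to -2.30), with adjusted p between 6.38e-06 and 7.93e-05. The size of these differences is poorly fixed, as the GTML values lay near background. Against the TF tumour alone, the difference of GTML tumours was -0.85. GNPs were 0.78 above adult cerebellum, which missed the threshold (adjusted p = 0.152) but passed when the TF tumour was left out of the fit (adjusted p = 0.00873). The second probe set, 1426001_at, followed the first over the 23 arrays (r = 0.94) and gave the same calls in all comparisons with adult cerebellum or GNPs. By 1426001_at GTML tumours differed less from the *Ptch1* models (-1.04 from CRISPR-Ptch1, -0.58 from Ptc+/- and -0.68 from MERP tumours). The difference from Ptc+/- tumours missed the threshold (limma adjusted p = 0.106).

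The TF tumour decided how *Eomes* in CRISPR-Ptch1 tumours compared with the other *Ptch1* models. With EP and TF tumours together the difference was 0.34 from Ptc+/- and -0.10 from MERP tumours, neither past the threshold. EP tumours alone were 1.24 above Ptc+/- (limma adjusted p = 0.00126) and 0.80 above MERP tumours (adjusted p = 0.0426), while the TF tumour alone lay below both (log2 differences -1.46 and -1.90, adjusted p = 0.00498 and 0.00382). The fit assumes that a single tumour varies as the other groups do. As for unipolar brush cell genes, the mean of *Calb2*, *Grm2*, *Plcb1* and *Plcb4* was 9.16 and 9.72 in EP tumours, 8.43 in the TF tumour and 8.09 to 8.85 in Ptc+/- and MERP tumours. Mature granule neuron markers were at 9.18 and 10.70 in EP tumours, 7.90 in the TF tumour and 5.93 to 6.97 in Ptc+/- and MERP tumours. In the mature granule neuron markers the TF tumour lay above Ptc+/- and MERP tumours and below EP tumours. In the unipolar brush cell genes it lay below EP tumours and within the range of Ptc+/- and MERP tumours. All EP, Ptc+/- and MERP tumours exceeded it in *Eomes*. The part of these markers in the *Eomes* level was not tested. In GNPs, where *Eomes* was highest, the unipolar brush cell list was at 8.33 to 8.45, against 10.81 to 10.96 in adult cerebellum.

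*Barhl1* and *Meis1*, homeodomain genes of the granule lineage, shared a pattern: high in GNPs and all *Ptch1* models, intermediate or low in adult cerebellum and lowest in GTML tumours. *Barhl1* was at 9.72, 9.89 and 10.18 in GNPs and at 9.49 and 9.44 (EP) and 9.59 (TF) in CRISPR-Ptch1 tumours. Ptc+/- tumours had 10.36, 10.12, 9.82 and 9.83, and MERP tumours 10.36, 10.61, 10.34, 9.999 and 10.54. Adult cerebellum was at 5.98, 5.79, 5.55 and 5.48, and GTML tumours at 4.43, 5.09, 5.58 and 4.74. The adult and GTML values overlapped with each other and with no other group.

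*Barhl1* was 42.4-fold lower in GTML than in MERP tumours (log2 difference -5.41 ± 0.19, limma adjusted p = 4.6e-15), and 31.3-fold lower than in GNPs. These folds are poorly fixed, as GTML tumour 1 lay near background (4.43). The other probe set, 1418812_a_at, gave smaller log2 differences of -4.146 from MERP tumours and -2.865 from GNPs. CRISPR-Ptch1, Ptc+/- and MERP tumours and GNPs exceeded adult cerebellum 14.0-, 20.1-, 25.5- and 18.8-fold. GTML tumours were 0.74 below adult cerebellum (adjusted p = 0.00289). Among the *Ptch1* models, CRISPR-Ptch1 tumours were 0.86 below MERP tumours (adjusted p = 0.00782) and 0.53 below Ptc+/- tumours (adjusted p = 0.0566). No *Ptch1* model differed from GNPs by this probe set, but by the second one, 1418812_a_at, all did. It was 0.58, 0.97 and 1.28 higher in CRISPR-Ptch1, Ptc+/- and MERP tumours than in GNPs, with adjusted p = 0.01, 9.15e-06 and 2.21e-07. For CRISPR-Ptch1 tumours the first probe set had the opposite sign (-0.43).

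*Meis1*, a TALE homeodomain cofactor, was at 10.66, 10.71 and 10.59 in GNPs. CRISPR-Ptch1 tumours were at 10.57 and 10.59 (EP) and 10.65 (TF), Ptc+/- tumours at 10.41, 10.63, 10.18 and 10.46 and MERP tumours at 10.29, 10.49, 10.69, 10.22 and 10.81. Adult cerebellum held 8.95, 8.91, 8.83 and 8.93, and GTML tumours 6.46, 6.70, 6.76 and 6.46. There were thus 3 levels with no overlap, GNPs with the *Ptch1* models on top, adult cerebellum between and GTML tumours at the bottom.

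By this probe set *Meis1* was 14.2- to 16.7-fold lower in GTML tumours than in GNPs or any *Ptch1* model (limma adjusted p between 5.43e-16 and 5.56e-15) and 4.95-fold lower than in adult cerebellum (adjusted p = 8.25e-13). No *Ptch1* model passed against GNPs, the 95% intervals lying within -0.51 and 0.24. The probe set 1443260_at kept the low GTML level (6.73 to 7.29) but was highest, on the mean, in Ptc+/- tumours. Its values there were 10.60, 11.39, 11.57 and 11.73, against 8.64 to 8.95 in CRISPR-Ptch1 tumours and 10.39, 8.76 and 8.33 in GNPs. MERP tumours were at 9.12, 10.19, 11.03, 9.60 and 10.19, 1 of them above the lowest Ptc+/- tumour. Ptc+/- tumours were 2.16 above GNPs (adjusted p = 0.000244) and CRISPR-Ptch1 tumours 2.51 below Ptc+/- tumours (adjusted p = 7.43e-05) by 1443260_at. Another, dimmer probe set, 1459423_at, was also highest in Ptc+/- tumours (5.20, 5.85, 6.99 and 6.54) and lay between 4.72 and 5.57 on all other arrays. Against adult cerebellum, GTML (-0.815) and CRISPR-Ptch1 tumours (0.979) missed the threshold by 1443260_at (limma adjusted p = 0.0769 and 0.0578). By 1459423_at they missed it too (adjusted p = 0.791 and 0.816). The 3 *Meis1* probe sets therefore do not give 1 answer for Ptc+/- tumours, nor for GTML and CRISPR-Ptch1 tumours against adult cerebellum.

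**Figure D3:**
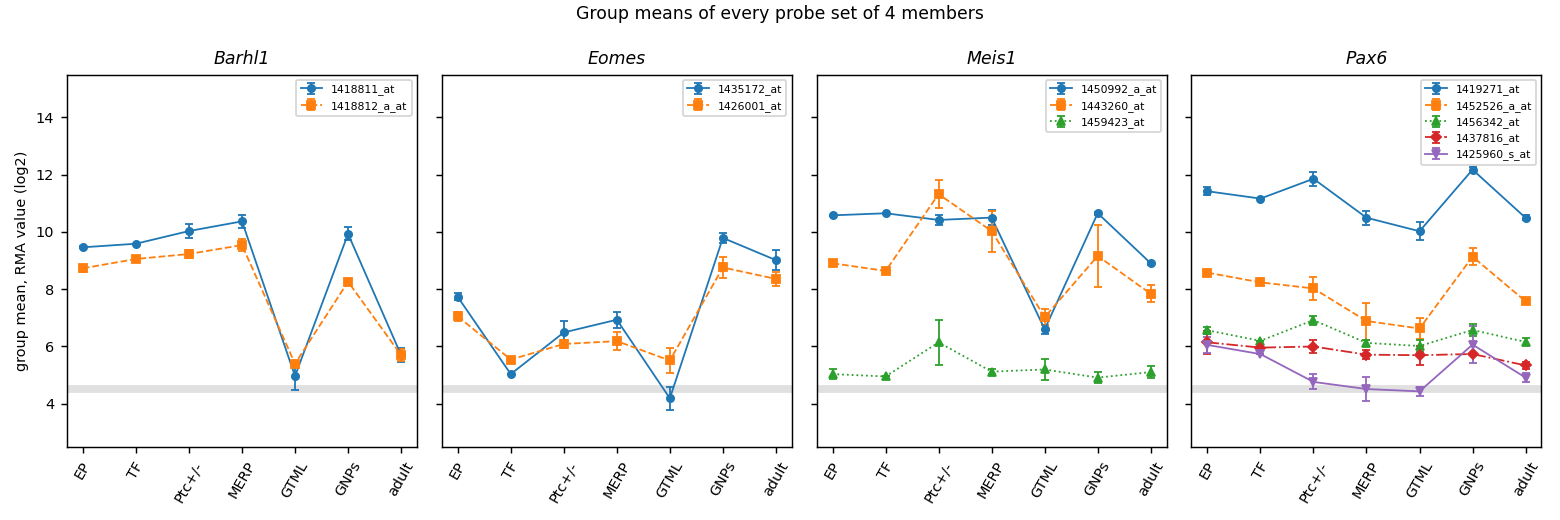
Group mean of each probe set (RMA value, log2; bars are SDs, none for the single TF tumour) of *Eomes*, *Barhl1*, *Pax6* and *Meis1*, by group (horizontal axis); the grey band is the range of lower quartiles, in or below which the means of 1425960_s_at of *Pax6* in GTML and MERP tumours and of 1435172_at of *Eomes* in GTML tumours lay. *Eomes* probe sets gave the same order of group means, but GTML tumours lay further below Ptc+/- and MERP tumours by 1435172_at (GTML mean 4.19) than by 1426001_at (5.51). *Barhl1* probe sets ran alike except that CRISPR-Ptch1 tumours lay below GNPs by 1418811_at and above them by 1418812_a_at. The *Meis1* probe set 1443260_at was highest in Ptc+/- tumours where 1450992_a_at was level. The *Pax6* probe set 1425960_s_at separated CRISPR-Ptch1 from Ptc+/- tumours in the direction opposite to 1419271_at.

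*Pax6*, a paired homeodomain factor of rhombic lip derivatives, was above background on all arrays and highest in GNPs, at 12.28, 12.07 and 12.18. Ptc+/- tumours followed at 11.63, 12.10, 11.66 and 12.03, then EP tumours at 11.32 and 11.52 and the TF tumour at 11.16. MERP tumours were at 10.76, 10.49, 10.54, 10.10 and 10.59 and adult cerebellum at 10.36, 10.53, 10.54 and 10.54. GTML tumours were lowest at 9.55, 10.11, 10.23 and 10.21. MERP tumours overlapped with adult cerebellum and lay below all other *Ptch1* tumours.

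By the brightest probe set of each gene, *Pax6* was the 1 gene of the 10 that separated MERP from Ptc+/- tumours, 1.36 ± 0.15 lower on the log2 scale (2.57-fold, limma adjusted p = 2.12e-06). It was 3.20-fold lower in MERP tumours than in GNPs and 1.79-fold lower in CRISPR-Ptch1 tumours than in GNPs (adjusted p = 6.89e-08 and 0.00229), while Ptc+/- tumours missed the threshold (0.32 below GNPs, adjusted p = 0.142). None of the other 4 *Pax6* probe sets called CRISPR-Ptch1 tumours against GNPs (adjusted p from 0.189 to 0.852), and their mean with the first did not either (log2 difference -0.28, adjusted p = 0.278). GTML tumours were below GNPs, CRISPR-Ptch1 and Ptc+/- tumours (log2 differences -2.15, -1.31 and -1.83), each past the threshold. They were 0.47 below MERP tumours and 0.47 below adult cerebellum (adjusted p = 0.0137 and 0.0136). Without the lowest GTML tumour these 2 differences were 0.32 and 0.31 and missed the threshold (adjusted p = 0.0792 and 0.074). None of the other 4 probe sets called GTML against MERP tumours (limma adjusted p from 0.463 to 0.933). That call was also lost with the mean of the probe sets (-0.19, adjusted p = 0.272) and with these 2 groups fitted alone (adjusted p = 0.0673). Of the other 4 probe sets, only 1452526_a_at called GTML tumours below adult cerebellum.

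CRISPR-Ptch1 tumours were 0.52 below Ptc+/- tumours in *Pax6* (limma adjusted p = 0.0177). The call was lost without EP tumour 1, without the TF tumour, and without Ptc+/- tumour 2 or 4 (adjusted p from 0.0512 to 0.0833). It also turned with the probe set: 1425960_s_at was at 6.25, 5.86 and 5.73 in CRISPR-Ptch1 tumours and 4.50 to 5.03 in Ptc+/- tumours, 1.19 higher in the first (adjusted p = 0.000785). Over the arrays, 1452526_a_at, 1456342_at and 1425960_s_at followed 1419271_at with r of 0.61 to 0.87, and 1437816_at with r of 0.47. The lower level in MERP than in Ptc+/- tumours was called by 1452526_a_at and 1456342_at as well. Dimmer probe sets of other genes also separated these models: *Meis1* by 1443260_at and 1459423_at (log2 differences -1.29 and -1.02, MERP minus Ptc+/-; limma adjusted p = 0.00779 and 0.00237) and *Barhl1* by 1418812_a_at (0.31, adjusted p = 0.0477).

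*Barhl2*, the paralogue of *Barhl1*, had 1 probe set and a narrow range, from 7.87 to 9.44. Ptc+/- tumours were highest at 8.99, 9.14, 9.44 and 9.37, and adult cerebellum was lowest at 7.91, 7.98, 8.01 and 7.87. GTML tumours were at 8.55, 8.93, 9.10 and 9.13, within the range of MERP tumours (8.48 to 9.24), so that the GTML deficit of *Barhl1* had no counterpart here. GNPs were at 8.62, 8.47 and 8.46, and CRISPR-Ptch1 tumours at 8.39, 8.34 and 8.02. *Barhl2* was 2.45-fold higher in Ptc+/- tumours than in adult cerebellum (limma adjusted p = 4.17e-07) and 1.64-fold higher than in GNPs (adjusted p = 0.00205). CRISPR-Ptch1 tumours were 0.98 below Ptc+/- tumours (adjusted p = 0.00015) and 0.69 below MERP tumours (adjusted p = 0.00901). The call against MERP tumours was lost when CRISPR-Ptch1 and MERP tumours were fitted alone (limma adjusted p = 0.0713).

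*Tbr1*, a T-box gene of early glutamatergic nuclear neurons, was near background in adult cerebellum (3.91 to 3.98), GNPs (4.04 to 4.23), MERP tumours (4.06 to 4.13) and Ptc+/- tumours (3.95 to 4.41). GTML tumours were higher at 5.34, 4.83, 6.58 and 5.17. EP tumours were at 4.55 and 4.62 and the TF tumour at 3.94. GTML tumours exceeded every other group by 1.11 to 1.53 on the log2 scale, with limma adjusted p between 1e-05 and 0.00177, and no array of another group reached the lowest GTML value. One GTML tumour was over 1 unit above the others, and without it the 5 calls stood. The call against CRISPR-Ptch1 tumours was lost when these 2 groups were fitted alone (1.11, adjusted p = 0.079).

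*Lhx2*, a LIM homeodomain selector gene of forebrain and eye that is also found in cerebellar nuclear neurons, was raised in all tumours. Adult cerebellum was below background at 2.62, 3.03, 2.83 and 2.91, and GNPs were at 4.96, 5.10 and 5.35. GTML tumours were at 8.43, 9.60, 8.68 and 8.29. EP tumours had 8.43 and 8.26 and the TF tumour 7.80. Ptc+/- tumours had 8.002, 7.36, 7.67 and 7.63, and MERP tumours 7.31, 8.18, 8.20, 7.97 and 8.46. Every tumour lay above every GNP sample, and every GNP sample above every adult one.

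Against GNPs *Lhx2* was 8.13-fold higher in CRISPR-Ptch1, 5.76-fold in Ptc+/-, 7.38-fold in MERP and 12.2-fold in GTML tumours, with limma adjusted p between 8.57e-10 and 2.53e-07. It was the only 1 of the 10 genes called higher than GNPs in all 4 tumour groups. Against adult cerebellum the log2 differences were 4.82 to 5.91, and their size is poorly fixed because the adult values lay below background. GTML tumours exceeded Ptc+/- tumours by 1.09 (adjusted p = 0.00112) and MERP tumours by 0.73 (adjusted p = 0.0171), the latter missing the threshold without GTML tumour 2 or MERP tumour 1. The difference from CRISPR-Ptch1 tumours was 0.59, with a 95% interval of 0.03 to 1.15 and an adjusted p of 0.0913, and it passed without GTML tumour 4 (0.74, adjusted p = 0.0389).

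*Lhx9*, the close relative of *Lhx2*, did not share its pattern. Its brightest probe set, 1431598_a_at, lay between 4.48 and 5.004 on all arrays and passed in no comparison. The other 3 probe sets ran together (r from 0.83 to 0.91 over 23 arrays) and not with the first (r from -0.22 to 0.05), and stood out on 2 arrays. In the TF tumour 1419324_at, 1429905_at and 1441313_x_at were at 6.49, 5.58 and 4.47, and in GTML tumour 4 at 4.49, 4.91 and 4.47. On the other 21 arrays they were at 3.09 to 4.19, 2.86 to 3.81 and 2.76 to 3.46. Neither tumour group passed as a whole by any of these probe sets.

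Both arrays also had high choroid plexus markers for their kind: the list mean was 8.34 in the TF tumour against 6.002 and 5.67 in EP tumours, and 7.48 in GTML tumour 4 against 4.53 to 4.91 in the other 3. *Ttr*, the most abundant choroid plexus transcript, was at 14.23 and 13.54 on these 2 arrays. In GNPs the list mean was higher (9.41 to 10.26), and in Ptc+/- tumour 2 it was between those of the 2 arrays (8.04, with *Ttr* at 14.66), while 1419324_at was at 3.59 to 4.19 in GNPs and 3.09 in that tumour. What part choroid plexus cells had in the *Lhx9* signal was not tested.

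**Figure D4:**
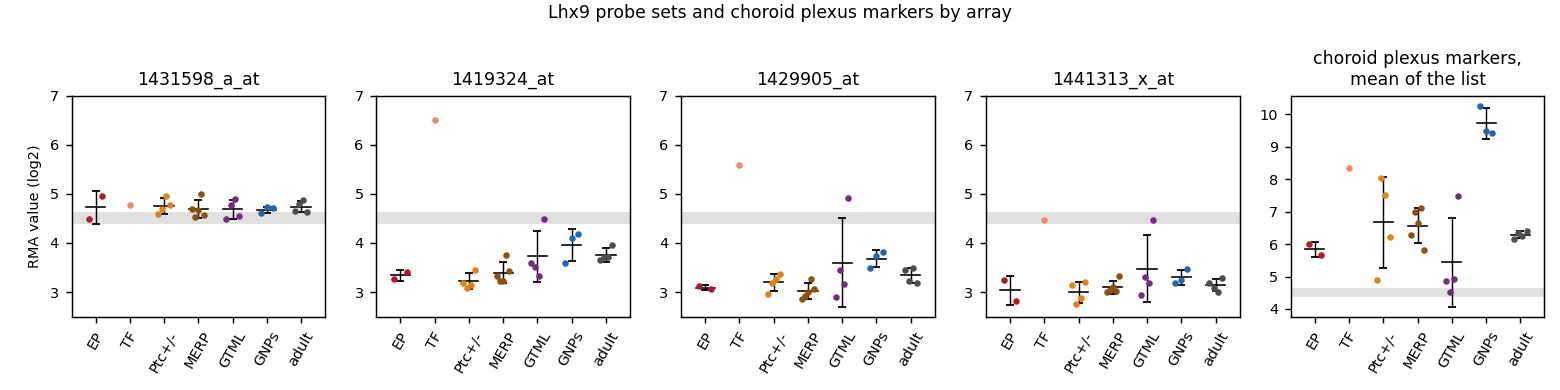
RMA values (log2) of the 4 *Lhx9* probe sets and the mean of 6 choroid plexus markers on each array (points), by group, with mean and SD; the grey band is the range of lower quartiles, and the last panel has its own scale. On 3 *Lhx9* probe sets the TF tumour and GTML tumour 4 lay above the other arrays, while GNPs, with the highest choroid plexus markers (9.41 to 10.26), did not.

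Over the 23 arrays *Barhl1* and *Meis1* had r = 0.92 with each other, *Otx2* and *Lhx2* r = 0.74, *Otx2* and *Eomes* r = -0.70, and *Eomes* and *Lhx2* r = -0.76. These are descriptions of arrays that share 7 groups and fall into separate clusters. For the 6 genes whose group means spanned over 2 log2 units, the genes with the most similar profiles were *Gmip*, *Cdk8* and *Gtf2ird1* for *Otx2* (r = 0.92, 0.92 and 0.91), *Rdh10*, *Lrrn3* and *Medag* for *Eomes* (r from 0.91 to 0.92), and *Gjc1*, *Ror2* and *Sstr2* for *Barhl1* (each r = 0.98). *Meis1* was closest to *Gm11266*, *Nedd4l* and *Zic4* (r from 0.97 to 0.98), *Lhx2* to *Lyz1*, *Otud4* and *Bcl11a* (r from 0.955 to 0.963), and *Pax6* to *Glce*, *Gpc4* and *Vcan* (r from 0.88 to 0.90).

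Other genes of these lineages gave a context for GTML tumours. Of 10 granule lineage genes measured, 8 were lower and 0 higher in GTML tumours than in GNPs (list median -2.21, median of all genes -0.02; 41.8% of all genes were called), and 7 were lower and 2 higher than in MERP tumours (39.2% of all genes). *Zic1*, a zinc finger gene of granule cells, was at 5.12 to 7.71 in GTML tumours and at 13.50 to 14.20 on all other arrays. *Neurod1*, a proneural gene of the same list, was high throughout, at 13.35 to 13.73 in GTML tumours and 12.40 to 13.91 elsewhere except 11.91 in the TF tumour. Of 7 rhombic lip and roof plate genes, 4 were lower and 0 higher in GTML tumours than in GNPs. Of all 18194 genes, 41.8% were called in either direction there and 4669 were lower. The list median was -2.20, against -0.02 for all genes. *Atoh1*, the proneural gene that specifies the rhombic lip lineage, was at 5.31 to 5.57 in GTML tumours, 9.59 to 9.77 in GNPs and 9.86 to 12.04 in *Ptch1* tumours.

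*Olig3*, a rhombic lip bHLH gene of the same list, also separated the TF from the EP tumours. It was at 10.73 and 11.07 in EP tumours and 4.26 in the TF tumour, at 10.01, 10.54, 7.91 and 7.01 in Ptc+/- and 11.07 to 11.50 in MERP tumours, and at 6.22 to 6.74 in GNPs. Of 4 unipolar brush cell genes, all 4 were lower than in adult cerebellum in Ptc+/-, MERP and GTML tumours and 3 in CRISPR-Ptch1 tumours and GNPs, where 47.5% to 55.7% of all genes were called in either direction. In the same 5 comparisons all 6 mature granule neuron markers and all 4 Purkinje cell markers were lower too.

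Relatives of the 10 genes moved unevenly. *Meis2*, the paralogue of *Meis1*, was highest where *Meis1* was lowest, at 8.36 to 9.52 in GTML tumours, 6.03 to 6.60 in adult cerebellum and 4.03 to 5.78 elsewhere, 4.27 above MERP tumours (limma adjusted p = 2.61e-12). *Crx*, the OTX relative of photoreceptors and pineal gland, was at 8.80 to 9.95 in GTML tumours and 4.54 to 5.21 on all other arrays. It was accompanied by 3 further photoreceptor genes of 5 measured, *Nrl*, *Sag* and *Pde6b*, which passed against every other group, while *Rcvrn* was at 3.42 to 3.92 over all arrays. Of 10 LIM and TALE relatives, 3 were higher and 3 lower in GTML tumours than in GNPs, with a list median of 0.22 (41.8% of all genes were called). Of 8 T-box, PAX and OTX relatives, 2 were higher and 3 lower in that comparison, and of 3 forebrain neuron genes 1 was higher and 1 lower. *Lhx5*, a LIM homeodomain gene of early cerebellar neurons, was at 7.55 to 7.83 in GNPs and 6.32 to 6.53 in adult cerebellum, and near background in all tumours (3.46 to 4.24).

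**Figure D5:**
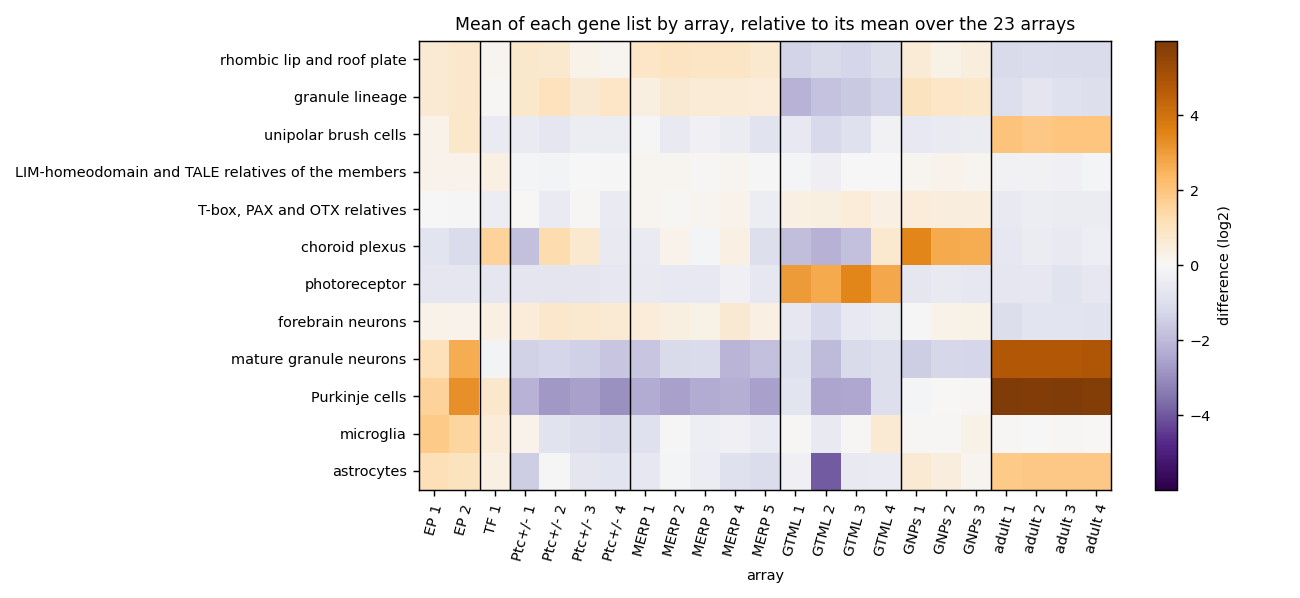
Mean of each lineage or marker list on each array (columns), as the log2 difference from that list's mean over the 23 arrays, brown where higher and purple where lower; lines separate the groups. Photoreceptor genes were raised in the 4 GTML tumours (list mean 7.86 to 8.64), mature granule neuron and Purkinje cell genes in adult cerebellum and, less so, in the 2 EP tumours, and choroid plexus genes in GNPs, the TF tumour, GTML tumour 4 and Ptc+/- tumours 2 and 3.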

How the data were processed

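RNA from 23 samples was measured on Affymetrix mouse gene expression arrays. The deposited log2 values were made by the authors with Affymetrix Expression Console 1.3.1 by RMA. Which arrays were normalized together is not given in the sources used here. The values were used as given. Of 45101 probe sets, 34958 carried 1 gene in the platform annotation, 932 carried several and 9211 none, and only the first were used, 34754 of them renamed through their Entrez identifier. This gave 18194 genes, each represented by its probe set with the highest mean.

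Groups followed the sample titles, with EP and TF tumours fitted together. One limma 3.58.1 fit (R 4.3.3; lmFit, contrasts.fit, eBayes) of 6 groups gave 15 comparisons, with Benjamini-Hochberg adjustment over all genes and a threshold of 0.05. The fit was tested on simulated data. The 10 genes and the lists were chosen with earlier results of these data known; all 10 genes are named, and list genes only with counts or where a result turns on them. The number of arrays, 1 to 5 a group, limits the precision. Promoter windows came from RefSeq (GRCm38.p6), and all 10 genes had one. Alternatives changed the scaling, the choice of probe set, a filter on dim genes, the eBayes settings, the samples fitted, a replicate block and a minimum of 2-fold.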

Additional observations from a re-analysis of the deposited data

Results flagged for a closer look

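In 84 sets of 4 or 5 arrays (21 probe sets in 4 groups), 6 had 1 array set apart from the rest of its group by a gap large against the group's range. Chance gives about 1 in 20. *Otx2* in MERP tumour 4 was at 9.27, where the other 4 were at 10.63 to 11.04. The second *Barhl1* probe set, 1418812_a_at, was at 9.20 in MERP tumour 1 (others 9.58 to 9.73). The *Pax6* probe set 1437816_at was at 5.64 in Ptc+/- tumour 1 (others 6.07 to 6.15), and the main one, 1419271_at, at 10.36 in adult cerebellum 1 (others 10.53 to 10.54). *Lmx1a* was at 3.74 in adult cerebellum 1 (others 3.87 to 3.88), and the *Lhx9* probe set 1441313_x_at at 3.33 in MERP tumour 5 (others 3.004 to 3.09), both near background.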

How the results depend on the processing

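Of the 76 calls, 58 stayed called in the same direction under all alternatives run, and 46 of the 74 uncalled differences stayed uncalled. The numbers of genes called were within 1.5 times the main number except as follows. With a minimum of 2-fold, 5 genes were called for GTML tumours against adult cerebellum, 0 for CRISPR-Ptch1 against Ptc+/- and 0 for CRISPR-Ptch1 against MERP tumours (2 and 3 in limma without that minimum). With the mean of a gene's probe sets, 6 were called for Ptc+/- tumours against GNPs and 3 for MERP against Ptc+/- tumours. Leaving out 1 array gave 1 to 3 for CRISPR-Ptch1 against Ptc+/- tumours, 1 without EP tumour 1 or Ptc+/- tumour 2 or 4. Centring arrays on the median of the named genes (added once the values were known) gave 7 for Ptc+/- and 5 for MERP tumours against GNPs, 5 for CRISPR-Ptch1 against Ptc+/- and 2 for MERP against Ptc+/- tumours. That median was 6.94 to 7.22 in Ptc+/- tumours and 7.56 to 7.60 in GNPs, and over all genes the centring moved the share of higher calls by over 10 percentage points in 12 of 15 comparisons. Centring on all probe sets did so in 2 and changed none of the 150 calls.

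Directions turned as follows; the cause was not tested. With the mean of the probe sets, *Meis1* was 1.05 higher in Ptc+/- tumours than in GNPs, 1.15 lower (-1.15) in CRISPR-Ptch1 than in Ptc+/- tumours and -0.74 in MERP against Ptc+/- tumours, and *Pax6* was 0.14 for CRISPR-Ptch1 against Ptc+/- tumours. With named-gene centring *Lmx1a* was 0.48 and 0.43 higher in Ptc+/- and GTML tumours than in GNPs. *Eomes* in CRISPR-Ptch1 tumours was -1.46 from Ptc+/- with the TF tumour alone, and 0.80 from MERP with the EP tumours alone; leaving out 1 array, the difference from MERP ran from -0.59 to 0.80.

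Replicate numbers showed no sign of pairing the samples. Same-numbered arrays of different groups had a mean r of -0.01 between their deviations over 46 pairs, with 5 above 0.1. Other-numbered arrays had a mean r of 0.004 over 153 pairs, with 20 above 0.1. With a replicate block and without the TF tumour, whose number is only a name, 80 of 150 differences were called, with *Eomes* 1.28 higher in CRISPR-Ptch1 than in Ptc+/- tumours. The filter on dim genes left 7 of the 10 genes (not *Lmx1a*, *Tbr1* and *Lhx9*), so it gave no value for the other 3. Low levels of these 3, and of *Lhx2* in adult cerebellum, limit what the arrays can show.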
